A study of Mus musculus with 8 samples.

Results

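The clustered protocadherin genes are the members described here: all genes on mouse chromosome 18 whose symbol is Pcdha, Pcdhac, Pcdhb, Pcdhga, Pcdhgb or Pcdhgc followed by a number. The gene table (GRCm38.p6, the mm10 build of the deposited peaks) held 58 such genes, of which 57 are protein-coding and 1, Pcdhgb8, is a transcribed pseudogene, against 21883 protein-coding genes in the whole table. The alpha cluster had 14 members (36930285 to 37188897), the beta cluster 22 (37264998 to 37521419) and the gamma cluster 22 (37661775 to 37841873). The clusters with 100 kb on each side spanned 1112 kb. Overlapping peaks were joined into regions, which gave 97 regions in this locus out of 443327 in the genome over the 8 deposited lists.

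Accessible chromatin had been mapped in 8 mouse brain libraries, 2 per group, with ATAC-seq, an assay that tags open DNA with sequencing adapters by means of the transposase Tn5. Mice without Fn14, the receptor for the cytokine TWEAK (Fn14 KO), and wild-type littermates (Fn14 WT) were untreated and killed at postnatal day 27, and the tissue taken was a coronal section of brain with hippocampus, cortex and dLGN. The dLGN, or dorsal lateral geniculate nucleus, is the thalamic station of the visual pathway. The other mice were C57Bl/6J, received chow with PLX5562 (so spelled in the labels, meant to deplete microglia) or a control chow, starting on postnatal day 20, and were killed on postnatal day 32 for dissection of the dLGN alone. All 4 groups share the C57Bl/6J background. The labels do not say that libraries of a group come from separate mice, so the spread between them may be technical, and they name no allele or Cre line for the knockout.

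Protocadherins are cell adhesion proteins. In the alpha and gamma clusters each gene consists of its own large first exon, with its own promoter, joined to a set of constant exons shared by the whole cluster at its far end. Beta genes have a single coding exon each. A neuron uses a small, largely random choice of the alpha, beta, gamma A and gamma B promoters, which gives it a surface identity used in self-avoidance of its branches, while the C-type genes (Pcdhac1, Pcdhac2, Pcdhgc3, Pcdhgc4 and Pcdhgc5) are used more evenly across neurons. Promoter choice depends on CTCF and cohesin, which loop promoters to enhancers that lie within and beyond the alpha cluster and beyond the gamma cluster.

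The lists held 248989 to 299822 peaks, and their read depth is unknown. The −log10 p of a peak is the authors' own value and moves with depth, so libraries were compared by rank, that is, the place of a region in its own library when regions are ordered by −log10 p, with 1 the strongest. A strong region is one of the 50000 first in its library. No group difference in rank passed an adjusted p of 0.05. Comparisons of 2 libraries with 2 allow no exact permutation p below 0.333. At the start of Tnfrsf12a, the Fn14 gene, neither KO library had a peak, while WT libraries had a −log10 p of 13.6 and 8.02 and the dLGN libraries 10.0 to 25.3. Tissue markers differed only in part. At Neurod6, a gene of cortical and hippocampal excitatory neurons, −log10 p was at most 4.12 in dLGN. It had no peak in 1 dLGN library and 28.0 to 42.1 in sections. Of 6 markers of such neurons, 0 ranked ahead in every dLGN library and 2 behind. Of 6 thalamic neuron markers, 0 ranked ahead and 0 behind, where 10.4% and 27.5% of all gene starts did.

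In each library most member starts had no peak. A peak within 1 kb of the start was found in all 8 libraries for 9 of 58 members (15.5%), in 2 to 7 libraries for 15, in 1 library for 7 and in no library for 27 (46.6%). Of 17491 protein-coding genes with a stranded start in the promoter table, 61.1% had a peak in all 8 libraries and 27.8% in none. Per library, 12 to 20 member starts carried a peak, that is 20.7% to 34.5%, against 64.9% to 66.7% of all gene starts. A strong region lay at 7 member starts in any library (12.1%), against 60.5% of gene starts. The share of member starts with a peak was below that of all gene starts in each of the 8 libraries. In bulk tissue, fewer cells with an open start and less opening per cell cannot be told apart.

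**Figure D1:**
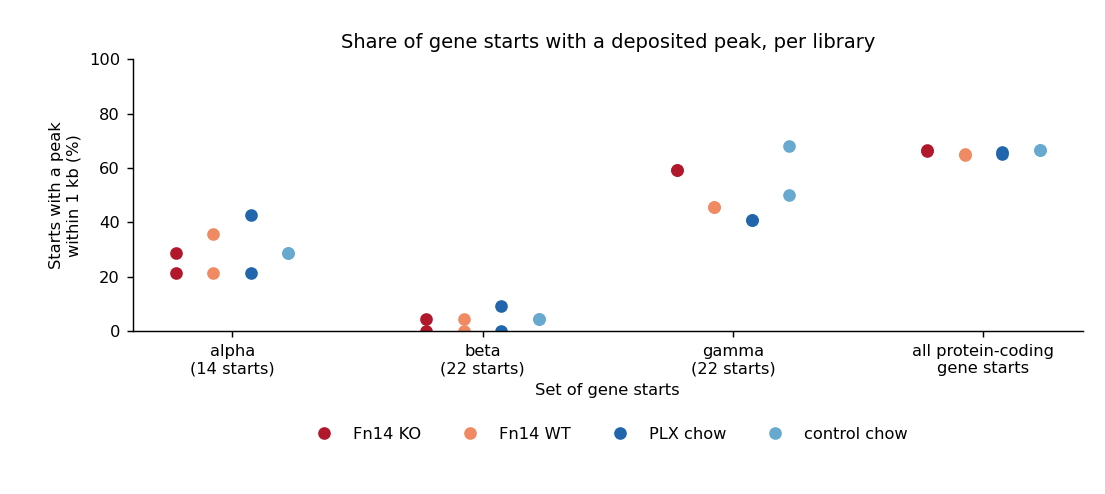
The share of gene starts with a deposited peak within 1 kb (y axis, percent) is drawn for each library, coloured by group, for the alpha, beta and gamma clusters and for all protein-coding gene starts. Beta starts sit at 0% to 9.09%, while all gene starts sit at 64.9% to 66.7%.

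The clusters differed among themselves. All 5 C-type starts had a peak in every library, while of the 53 other members 4 did and 27 had none. Beta had the fewest, with 17 of 22 members without a peak in any library and none with a strong region. Alpha starts without the C-type pair carried a peak in 16 of 96 combinations of start and library (16.7%), beta starts in 6 of 176 (3.41%) and gamma A and B starts in 66 of 152 (43.4%). Starts of 1 library are not independent observations, so these shares are given without a test. Peaks at member starts lay mostly near the start itself. Over 128 peaks at member starts the summit had a median distance of −36 bp (before the start), and 94 (73.4%) lay within 200 bp. At Pcdhac2, Pcdhgc4 and Pcdhga12 the summit lay beyond 200 bp in all 8 libraries.

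**Figure D2:**
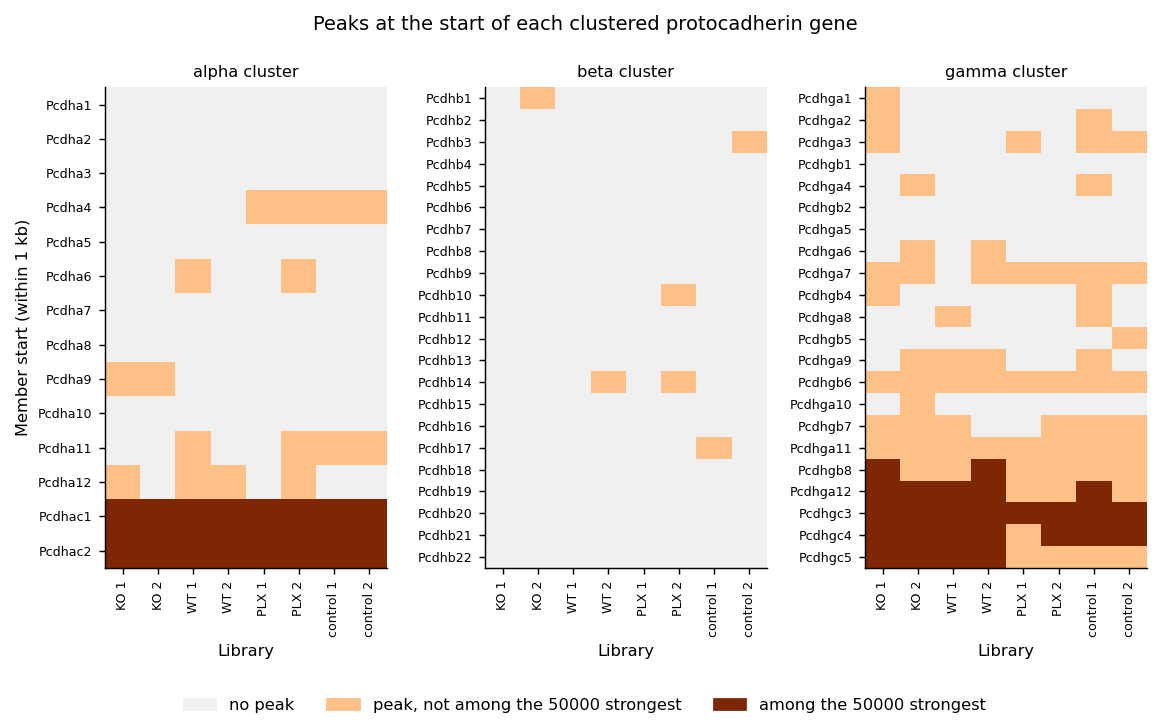
Each row is the start of 1 clustered protocadherin gene and each column 1 library, coloured by whether no peak, a peak, or 1 of the 50000 strongest regions lies within 1 kb. Dark cells are found at 7 of 58 starts, among them all 5 C-type starts, and the beta panel is nearly empty.

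Pcdhgc3, the first C-type gene of the gamma cluster, which shapes dendrites of cortical neurons in mice, had the strongest start of all members in all 8 libraries. Its −log10 p was 179 and 148 in Fn14 KO, 202 and 135 in Fn14 WT, 206 and 222 under PLX chow and 291 and 277 under control chow. These are ranks 3440 to 5661, so that the start was among the strong regions of every library by a wide margin. The summit lay at −71 to −57 bp from the start (negative is before it), and the region on chromosome 18 ran from 37805875 to 37807409.

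Pcdhac1, the first C-type gene of the alpha cluster, came next in all 8 libraries. Its −log10 p was 99.95 and 80.8 in Fn14 KO, 66.5 and 48.8 in Fn14 WT, 90.8 and 120.0 under PLX chow and 141 and 129 under control chow. Ranks were 9646 to 16333, and the fold enrichment over local background was 10.6 to 14.7. The summit varied by little, from −166 to −154 bp.

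Pcdhac2, which in mice is needed for the spacing of serotonergic axons, had −log10 p of 32.7 and 27.2 in Fn14 KO, 38.4 and 40.0 in Fn14 WT, 63.4 and 47.6 under PLX chow and 77.0 and 78.8 under control chow. Its summit lay inside the first exon, 202 to 239 bp after the start. Pcdhgc4, which in mice is needed for survival of cortical interneurons, had 51.6 and 33.6 in Fn14 KO, 35.5 and 41.5 in Fn14 WT, 25.1 and 29.5 under PLX chow and 47.6 and 55.6 under control chow, with a summit 254 to 274 bp after the start. The order of these 2 starts changed between libraries, with Pcdhac2 ahead in 5 of 8. Pcdhgc4 also had a separate, weaker region over its start (37814569 to 37815141) with −log10 p of 5.59 to 29.8.

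Pcdhgc5 was the most variable C-type start. Its −log10 p was 44.1 and 28.0 in Fn14 KO, 40.9 and 22.2 in Fn14 WT, 16.1 and 14.9 under PLX chow and 18.5 and 7.21 under control chow. It was ahead of Pcdhac2 in 3 of 8 libraries and ahead of every member that is not C-type in 4 of 8. Pcdhac1, Pcdhgc3 and Pcdhgc4 were ahead of all of those in 8 of 8 libraries, and Pcdhac2 in 7.

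Among gamma A and gamma B genes, starts nearer the constant exons had peaks in more libraries. The first 7 starts (Pcdhga1 to Pcdhga5) carried a peak in 9 of 56 combinations of start and library (16.1%), the next 6 (Pcdhga6 to Pcdhga9) in 18 of 48 (37.5%) and the last 6 (Pcdhgb6 to Pcdhga12) in 39 of 48 (81.2%). This division was made after the values were seen. Spearman's rho between order along the chromosome and mean rank strength was 0.66 over the 19 starts, and 0.48 over the 12 alpha starts that are not C-type. Both are descriptions over starts that share the same 8 libraries.

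The last members before the C-type genes were the strongest of this kind. Pcdhga12 had −log10 p of 25.5 and 29.4 in Fn14 KO, 17.7 and 19.04 in Fn14 WT, 9.91 and 12.3 under PLX chow and 37.5 and 19.4 under control chow, and was strong in 5 libraries. The pseudogene Pcdhgb8 had 26.7 and 17.5 in Fn14 KO, 13.5 and 18.5 in Fn14 WT, 14.1 and 20.9 under PLX chow and 26.3 and 18.7 under control chow, and was strong in 2. Pcdhgb6 (4.46 to 20.8) and Pcdhga11 (4.13 to 16.6) had a weaker peak in all 8 libraries, and Pcdhga7 (3.77 to 17.3) in 7. Pcdhgb1, Pcdhgb2 and Pcdhga5 had none in any library, and the remaining 11 gamma A and B members had weak peaks in 1 to 6 libraries.

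Alpha members other than the C-type pair were near the limit of detection. Pcdha4 had a peak in the 4 dLGN libraries and Pcdha11 and Pcdha12 in 4 libraries of both tissues, with −log10 p of at most 7.32, and Pcdha6 and Pcdha9 had 1 in 2 libraries each. The Pcdha4 peaks were not 1 region. Those of PLX chow 2 and control chow 1 lay at 36952486 to 36952689. Those of PLX chow 1 and control chow 2 lay at 36953126 to 36953342. At Pcdha12 the PLX chow 2 peak was likewise separate from the section peaks. The other 7 of these alpha members had no peak in any library. In the beta cluster 5 members had a weak peak, and no −log10 p exceeded 7.75. Pcdhb14 had a peak in Fn14 WT 2 (3.29) and PLX chow 2 (3.22), Pcdhb1 in Fn14 KO 2 (3.61), Pcdhb3 in control chow 2 (7.75), Pcdhb10 in PLX chow 2 (4.13) and Pcdhb17 in control chow 1 (3.43). A peak in a single library has no replicate. The authors' pipeline kept no reads that map to several places, and beta genes resemble each other in sequence; the part of this in the beta counts was not tested.

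Outside the starts, strong regions lay around and not within the beta cluster. The 256 kb of the beta cluster held 5 regions, 1.95 per 100 kb, of which 4 were found in a single library. The alpha cluster held 25 regions (9.67 per 100 kb) and the gamma cluster 37 (20.5 per 100 kb), of which 5 and 13 were found in all 8 libraries. Over the genome 16.1% of regions were found in all 8 libraries, against 29.9% of the 97 regions of the locus. In the alpha cluster 4 regions were strong in all 8 libraries. These were the Pcdhac1 and Pcdhac2 starts and a pair of regions between Pcdhac2 and the shared upper end of the cluster. The first of the pair (37172186 to 37172936) had −log10 p of 52.9 and 25.8 in Fn14 KO, 19.8 and 18.1 in Fn14 WT, 44.9 and 59.3 under PLX chow and 58.6 and 50.3 under control chow. The second (37178204 to 37179275) ranged from 16.3 to 51.9.

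**Figure D3:**
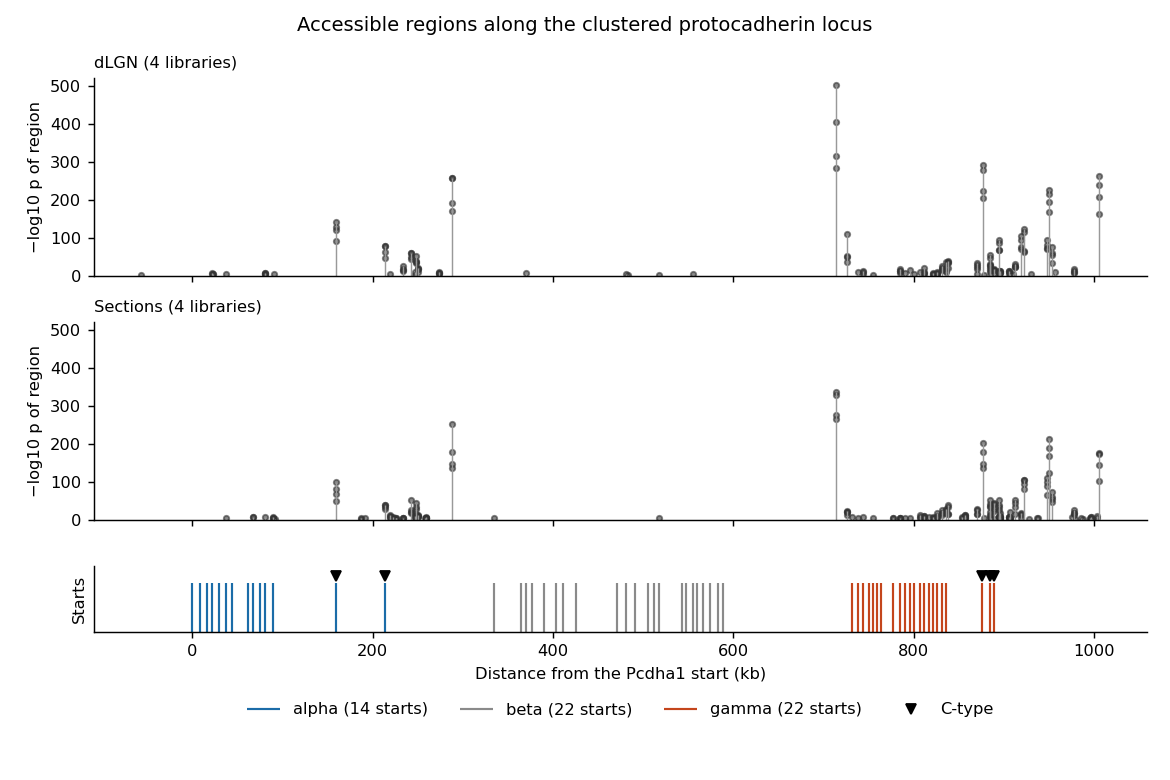
The authors' −log10 p of each region (1 point per library, y axis) is plotted against distance from the Pcdha1 start in kb for the dLGN libraries (top) and the section libraries (middle), with the member starts below and C-type starts marked by triangles. Tall regions stand at C-type starts, between the alpha and beta clusters, at Taf7 and beyond the gamma cluster, and the beta cluster is nearly bare.

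A single strong region lay between the alpha and beta clusters, 28243 bp above the alpha cluster (37217140 to 37218555), and was by mean rank the third strongest of the locus. Its −log10 p was 251 and 179 in Fn14 KO, 146 and 137 in Fn14 WT, 192 and 169.8 under PLX chow and 257 and 257 under control chow, and it lay at rank 2757 to 6972. It overlaps no gene of the table, and its identity with a known enhancer was not tested. The strongest region of the locus lay over an end of Taf7, a general transcription factor gene between the beta and gamma clusters (37643736 to 37644769), at rank 528 to 3504. Another, without a gene, lay between Taf7 and the gamma cluster (37655476 to 37656080), with −log10 p of 21.2 and 20.9 in Fn14 KO, 23.6 and 12.7 in Fn14 WT, 36.2 and 49.3 under PLX chow and 109 and 52.9 under control chow.

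Beyond the gamma cluster, Diaph1, which encodes an actin-assembling formin, held a row of strong regions. The strongest inside the gene (37879759 to 37880611) lay 37886 bp above the gamma cluster, with −log10 p of 212 and 168 in Fn14 KO, 189 and 122 in Fn14 WT, 168 and 194 under PLX chow and 225 and 216 under control chow. The region at 37934856 to 37936014, over the far end of Diaph1 next to Hdac3, ranged from 101 to 262. Inside the gamma cluster, a region between Pcdhgc5 and the shared end (37824005 to 37824718) was strong in all 8 libraries, with 51.8 and 33.9 in Fn14 KO, 39.8 and 26.8 in Fn14 WT, 68.2 and 86.6 under PLX chow and 94.8 and 66.9 under control chow. The remaining regions among the 10 strongest by mean rank were the starts of Pcdhgc3 and Pcdhac1, 3 further regions inside Diaph1 and none in the beta cluster.

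The first comparison asked whether accessibility in these genes differs without Fn14. Strong regions lay at 7 and 6 member starts in the KO libraries and at 6 and 7 in the WT libraries, a difference of 0, which was −2 with regions ordered by fold and 2.5 with every region counted down to the length of the shortest list. The clusters held 12 and 9 strong regions in KO and 11 and 14 in WT, which overlap (difference −2). The difference turned to 0.5 among the 100000 strongest regions and to 3.5 with every region counted down to the length of the shortest list. Of 26 member starts with a peak in either genotype, 2 ranked ahead in both KO libraries (7.69%) and 2 behind (7.69%), against 21.2% and 19.1% of all gene starts. Pcdhac1 ranked 9646 and 9808 in KO and 11792 and 13305 in WT, ahead in KO. Pcdhac2 ranked 33433 and 34591 in KO and 21041 and 16609 in WT, which is 1.82-fold further down the list in KO. Pcdhgc3 ranked 4950 and 4651 in KO and 3440 and 4157 in WT. Both shares lie below those of all gene starts, and each separation has an exact permutation p of 0.333, the smallest possible. A start that lacks a peak in a library of each group ties and cannot be counted. A peak in all 8 libraries was found at 15.5% of member starts against 61.1% of gene starts, so the lower shares do not show steadier ranks. Ordered by fold, 4 starts ranked behind in KO. Without 1 library the counts were 3 to 9 ahead and 3 to 7 behind, with the most ahead without KO 2 and the most behind without WT 1.

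**Figure D4:**
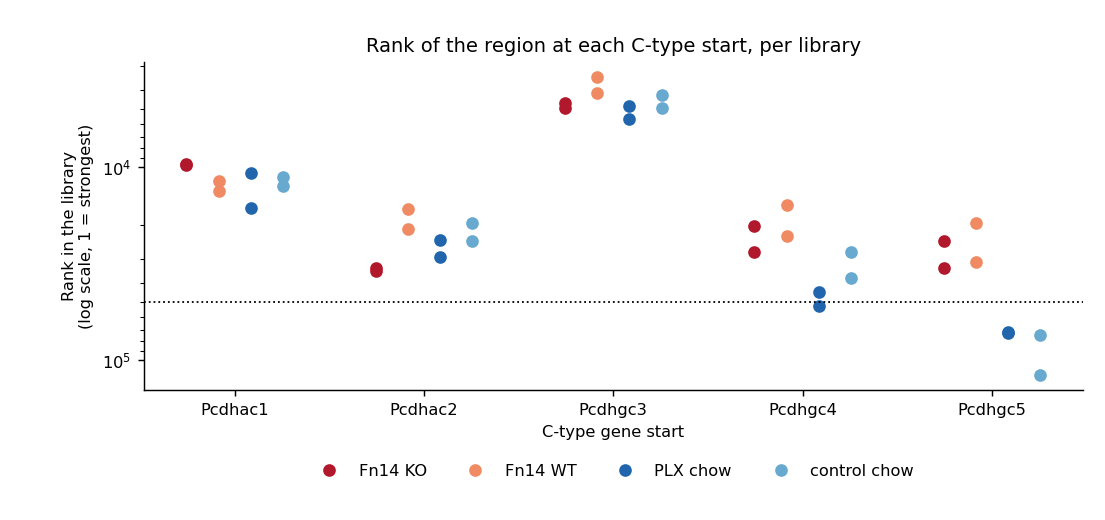
The rank of the strongest region within 1 kb of each C-type start (log scale, 1 the strongest, drawn at the top) is plotted for each library, coloured by group, with the 50000 limit as a dotted line. Pcdhac2 lies lower in both KO libraries than in both WT libraries, and Pcdhgc5 lies below the limit in all 4 dLGN libraries and above it in all 4 section libraries.

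In the locus 4 regions of 82 (4.88%) had a peak in both KO libraries and in neither WT library, against 4.7% of regions in the genome, and 0 had the reverse, against 1.59%. The 4 lay at the Pcdha9 start (−log10 p 6.14 and 6.02), in the alpha cluster at 37116924 to 37117073 (2.85 and 5.00) and at 37153020 to 37153241 (7.23 and 3.48), and in Diaph1 (37932790 to 37933159; 8.48 and 4.03). All were weak, and none had a peak in a dLGN library. The KO lists were the longer ones, with 217072 and 218214 regions in the genome against 192168 and 196388 in WT. With lists limited to the shortest, 3 regions of the locus were KO-only and 1 was WT-only. Leaving out a library loosens the rule, and the KO-only count was then 7 without WT 1 and without WT 2, 15 without KO 2 and 16 without KO 1. Among 25 strong regions, 3 ranked ahead in KO (12.0%, background 21.4%) and 6 behind (24.0%, background 20.9%). The region between the alpha and beta clusters ranked 2757 and 3481 in KO and 5243 and 4050 in WT, ahead in KO. The Taf7 region ranked 2470 and 1348 in KO and 1179 and 528 in WT, behind in KO.

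The second comparison asked whether the diet given to remove microglia changed these genes in dLGN. Strong regions lay at 3 and 4 member starts under PLX chow and at 5 and 4 under control chow, and the clusters held 8 and 8 strong regions under PLX chow and 9 and 8 under control chow. Both pairs touch or overlap. The difference in strong regions was −0.5, but −4.5 among the 100000 strongest regions and −5 with every region counted down to the length of the shortest list, where the diets no longer overlapped. The difference in starts was −1, and −2.5 under both of these settings. No region of 63 had a peak in both libraries of 1 diet and in neither of the other, where 1.56% (PLX chow only) and 2.87% (control chow only) of regions in the genome did. The rule loosens when it rests on fewer libraries. There were then 10 PLX-only regions without PLX chow 1 and 2 without PLX chow 2, and 7 control-only regions without control chow 2, 5 without control chow 1, 3 without PLX chow 2 and 1 without PLX chow 1.

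Of 26 member starts, 2 ranked ahead under PLX chow (7.69%, background 7.84%) and 4 behind (15.4%, background 21.5%), shares that missing peaks also lower. Those behind were Pcdhga3, Pcdhgb6, Pcdhga12 and Pcdhgc4. Pcdhgc4 ranked 52835 and 44664 under PLX chow and 37573 and 27680 under control chow, 1.51-fold further down under PLX chow. Pcdhga12 ranked 98421 and 83493 under PLX chow and 45261 and 63503 under control chow. Pcdhgc5 (71950 and 72859 under PLX chow, 74657 and 120308 under control chow) and Pcdha4 ranked ahead under PLX chow. At Pcdha4 this compares weak peaks of separate regions. Without PLX chow 1 the count ahead was 10, and the count behind was 6 to 10 without 1 library, with the most without PLX chow 2. Among the 21 strong regions of the locus 3 ranked ahead under PLX chow (14.3%, background 14.6%) and 9 behind (42.9%, background 16.2%), and the 9 included the Pcdhga12 start, both regions at the Pcdhgc4 start, the region between the alpha and beta clusters, the Taf7 region and 4 regions in Diaph1. The region between the alpha and beta clusters ranked 6261 and 6972 under PLX chow and 5910 and 4673 under control chow. The ranges are narrow, no exact permutation p can fall below 0.333, and the share was not tested. Of 12 microglial marker starts (for 5 of them the stronger of both gene ends), 5 and 5 had a peak under PLX chow and 7 and 7 under control chow. Csf1r, Cx3cr1, Trem2, Siglech, Fcrls, Aif1 and C1qa had none in either PLX library. Of these 7 genes, Trem2 and Siglech had a weak peak in both control chow libraries, and the part of these cells in the ranks was not tested.

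The third comparison set the 4 dLGN libraries against the 4 section libraries. Tissue, age and dissection differ together and cannot be told apart, and the dLGN side holds the PLX libraries while the section side holds the KO libraries. Strong regions lay at 3, 4, 5 and 4 member starts in the dLGN libraries and at 7, 6, 6 and 7 in the section libraries, which do not overlap. These are 5.17% to 8.62% of members in dLGN and 10.3% to 12.1% in sections. Of all protein-coding gene starts, 53.2% to 55.4% were strong in dLGN libraries and 56.1% to 57.3% in section libraries. Those shares do not overlap either, so the direction is not particular to the members. Among members the difference lay in the gamma cluster, at 2 ± 0.816 starts in dLGN and 4.5 ± 0.577 in sections (SD, n = 4 each), since the Pcdhac1 and Pcdhac2 starts were strong in all 8. Over the clusters the mean difference was −2.5 starts. It depended on the limit and was −1 with the 25000 strongest regions and 0 with the 100000 strongest, and it was −1 with regions ordered by fold. The clusters held 8.25 ± 0.5 strong regions in dLGN and 11.5 ± 2.08 in sections (SD, n = 4 each), a difference of −3.25 that was −1 with the 25000 strongest regions, −0.5 with the 100000 strongest and −0.25 with order by fold.

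Pcdhgc5, a C-type protein that binds GABA-A receptors in rodents, separated the tissues most among the members. It ranked 71950, 72859, 74657 and 120308 in dLGN and 24171, 33555, 19624 and 31281 in sections, 3.12-fold further down the list in dLGN by geometric mean. The exact 2-sided permutation p was 0.0286, the smallest possible with 4 libraries against 4. It was 0.0756 after Benjamini-Hochberg adjustment over 12656 starts, so it did not pass. Of these starts, 4780 had the same p, and that number fixes the adjusted value. The difference in −log2 rank was −1.64, and −0.77 with regions ordered by fold. Pcdhga12 ranked 45261 to 98421 in dLGN and 32131 to 45171 in sections, and Pcdhgb8 58030 to 78720 in dLGN and 37291 to 57094 in sections. Both had the same exact permutation p (adjusted 0.0756). Pcdhgc4 ranked 27680 to 52835 in dLGN and 15879 to 27706 in sections, which overlap at a single library each. Pcdhgc3, Pcdhac1 and Pcdhac2 overlapped between tissues.

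In the other direction, Pcdhga7 ranked 68768 to 116595 in dLGN and 152356 to 172448 in sections, with no peak in Fn14 WT 1. Pcdha4 had a peak only in dLGN lists, but in separate weak regions, each found in 2 libraries. Of 31 member starts, 2 ranked ahead in dLGN (6.45%, background 10.4%) and 3 behind (9.68%, background 27.5%). Missing peaks lower these shares too, so they do not show that members differ less between tissues. With 1 region each, 1.03% of 97 regions had a peak in all libraries of a tissue and in none of the other, against 4.5% for dLGN and 4.24% for sections in the genome. The dLGN-only region lay above the alpha cluster (37204171 to 37204431; −log10 p 5.12 to 8.87), and the section-only region lay 175 bp above its end (37189072 to 37189437; 3.29 to 7.82). The section-only count was 2 without control chow 2 or Fn14 KO 2 and 3 without Fn14 WT 1.

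**Figure D5:**
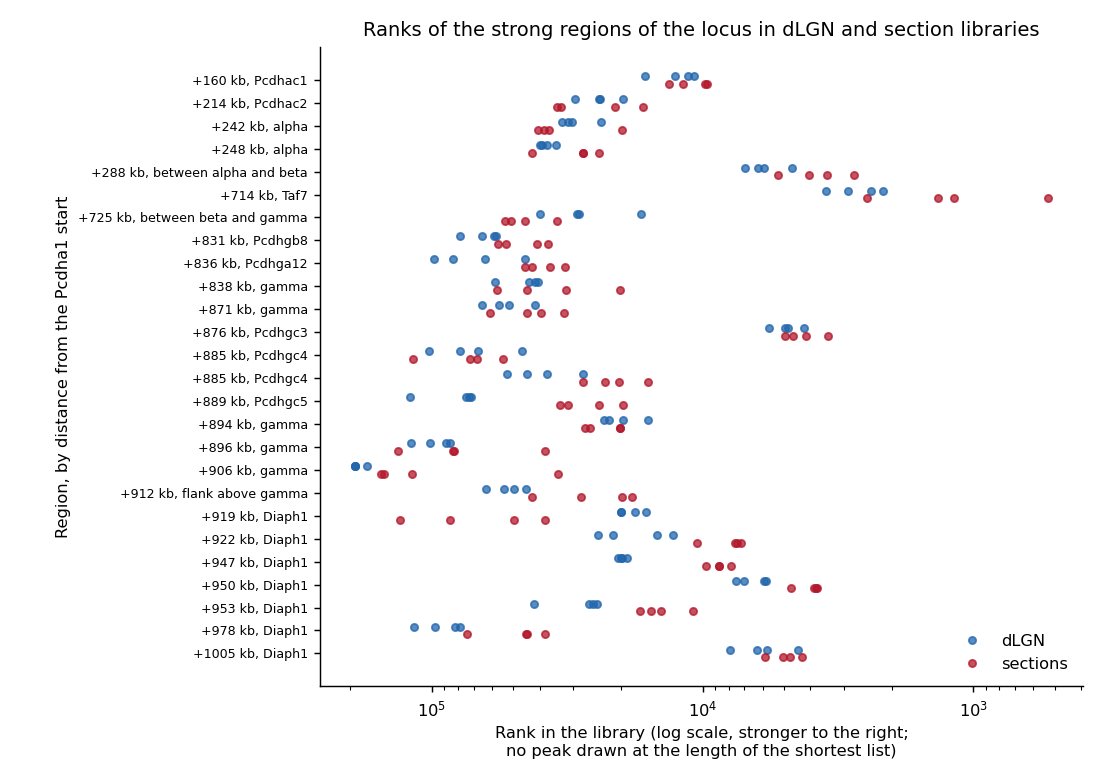
For the 26 regions of the locus that are strong in any library, the rank in each dLGN library (upper row of each pair) and each section library (lower row) is plotted on a log scale with stronger regions to the right. Of these, 1 region, in Diaph1 near the gamma cluster, lies fully further right in dLGN, and 10 regions lie fully further right in sections.

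Among the 26 strong regions of the locus, 1 ranked ahead in dLGN (3.85%, background 27.5%) and 10 behind (38.5%, background 29%). The one ahead lay in Diaph1, 7468 bp above the gamma cluster (37849341 to 37849984), at rank 19975, 19976, 17689 and 16127 in dLGN and 85800, 131263, 49691 and 38304 in sections. The neighbouring region 10044 bp above the cluster (37851917 to 37852784) went the other way, at 24368, 21363, 14756 and 12840 in dLGN and 10497, 7237, 7456 and 7589 in sections. Thus regions less than 3 kb apart in the same gene ranked in opposite order between the tissues. Of the other 9 behind in dLGN, 4 lay in Diaph1, 1 at the shared end of the gamma cluster and 4 inside it, 3 of them at the starts of Pcdhgb8, Pcdhga12 and Pcdhgc5. All 11 had an exact 2-sided permutation p of 0.0286, the smallest possible, and an adjusted p of 0.0506. Of 90484 strong regions in the genome, 51140 had the same p. That number fixes the adjusted p, which says nothing particular to these 11. At the start of Emx1, a marker of cortical and hippocampal excitatory neurons like Neurod6, −log10 p was 5.64 to 11.8 in 3 dLGN libraries, with no peak in control chow 2, and 14.6 to 34.2 in sections. Other markers of these neurons did not follow it. Tbr1 had 8.58 to 21.1 in dLGN and 9.22 to 13.04 in sections, and Bcl11b 25.2 to 45.0 in dLGN and 9.70 to 59.9 in sections. Neurod2 had a peak in PLX chow 2 and in both KO libraries. The part of cell makeup in the ranks of the locus was not tested.

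Genes that act with the clusters were mostly open. Of 12 protocadherin genes outside the clusters, 11 had a peak at the start in all 8 libraries and 10 were strong in all 8, against 9 and 3 of the 58 members. Of all protein-coding gene starts, 61.1% had a peak in all 8 libraries and 50.5% were strong in all 8. For 3 of the 12, 4 of the 13 regulators below and 4 of the 6 signalling partners, the stronger of both gene ends was used. Members and all gene starts were scored at 1 end only, so the measures are not alike. Pcdh9, of the delta family, had −log10 p of 597 to 781 in dLGN and 301 to 375 in sections. Its ranks overlapped between the tissues, at 685 to 839 in dLGN and 725 to 1339 in sections. In the tissue comparison 4 of the 12 ranked ahead in dLGN, namely Pcdh10, Pcdh11x, Pcdh17 and Pcdh19, and 1, Pcdh1, ranked behind, where 10.4% and 27.5% of all gene starts did. In the KO comparison 0 ranked ahead and 3 behind (background 21.2% and 19.1%), and under PLX chow 1 ranked ahead and 1 behind (background 7.84% and 21.5%). Of 13 regulators of cluster promoter choice, 11 were strong in all 8 libraries. At the listed ends of Rad21 there was no peak and at those of Nipbl a weak one in 1 library. Between groups 3 ranked ahead and 2 behind in KO, 1 ahead and 3 behind under PLX chow, and 2 ahead and 3 behind in dLGN. Set beside the same background shares, these counts show nothing particular to the regulators. Ctcf, which encodes the looping factor bound at most cluster promoters, had −log10 p of 156 and 109 in Fn14 KO, 110 and 75.9 in Fn14 WT, 128 and 137 under PLX chow and 179 and 144 under control chow. Smchd1, which represses genes of the clusters in mice, ranged up to 432. Of 6 signalling partners all had a peak in all 8 libraries, among them Wasf1, a subunit of the WAVE complex that binds protocadherins.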

How the data were processed

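ATAC-seq libraries were made with a Nextera kit from aliquots of 50000 nuclei, per the labels' protocols. Per the deposited instructions, the authors ran ENCODE's ATAC-seq pipeline (mm10, paired-end, multimapping 0, peak p threshold 0.01). The names of the lists show that reads were trimmed, that duplicate and mitochondrial reads were dropped, that a Tn5 step was applied, and that lists were capped at 300000 peaks and filtered. Aligner and peak caller: not given in the sources used here. The tool deepTools 3.5.0 appears in the submitters' processing notes without a role. Peaks were called per sample. The deposited lists give each peak a score, a fold (ratio) over local background, a −log10 p, a −log10 q and a summit. These are the authors' values. Depth is unknown, so counting error has no interval here.

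Within each library, peaks that overlap were joined, keeping the highest −log10 p, and ranked. Regions of the 8 lists that share at least 1 bp were joined. A start carried a region within 1 kb. A library without a peak, or with one ranked lower, was placed just behind 192168, the length of the shortest list, in rank comparisons. The gene table (RefSeq, GRCm38.p6) has no strand, so the lower end of each member served as its start, since alpha and gamma members share upper ends. Other starts came from the RefSeq promoter table, the first listed per gene, and listed genes without one took the stronger of both ends. No sequence of these chromosome 18 genes is printed.

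Ranks were compared on the −log2 scale by exact 2-sided permutation over libraries with Benjamini-Hochberg adjustment over all gene starts or all strong regions, an addition made after the data were seen. Counts over members are given without a p. Groups not overlapping means that every library of 1 group ranks ahead of every library of the other. Where a library of each group lacks a peak, the groups tie and cannot be called. Named are the C-type members and Pcdhb1, the strongest and weakest members per cluster, and members and regions whose groups do not overlap. The members and lists were chosen with earlier results of these data known. One marker gene is not reported here. The ranking code was tested on simulated data. Alternatives were other limits for strong regions, other windows, a q limit of 0.05, a 50% overlap, order by fold, lists limited to the shortest, a replicate block and leaving out each library. Python 3.11.15, pandas 2.3.3, numpy 2.4.6, statsmodels 0.14.6 and matplotlib 3.10.9 were used.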

Additional observations from a re-analysis of the deposited data

Results flagged for a closer look

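In the dLGN, the number of strong regions in the clusters was 8, 8 and 8 in 3 libraries and 9 in the control chow 1 library, so that the gap to the odd library made up the whole range (gap over range 1). The gap is a single region. At the Pcdhgc5 start, control chow 2 stood apart among the dLGN libraries, at a −log2 rank of −16.88 where the others lay between −16.19 and −16.13 (gap over range 0.928). Both exceed Dixon's 95% critical value for 4 libraries. In all, 14 groups of 4 libraries were examined and 2 stood out, where chance alone is set to give about 1 in 20 for continuous values. A count that ties in 3 of 4 libraries always gives a gap over range of 1, so that rate does not hold for counts.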

How the results depend on the processing

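The number of strong regions in the clusters, KO minus WT, was −2. It turned to 0.5 with the 100000 strongest regions and to 3.5 with lists limited to the shortest, and ranged from −3.5 to −0.5 without 1 library. Member starts with a strong region, dLGN minus sections, differed by −2.5. The difference shrank with 25000 strong regions (−1), 100000 (0), lists limited to the shortest (0) and order by fold (−1), and ranged from −2.83 to −2.17 without 1 library. Strong regions in the clusters, dLGN minus sections, differed by −3.25, by −1 with 25000 strong regions, −0.5 with 100000, −0.25 with order by fold and −4.75 with lists limited to the shortest, and ranged from −4.08 to −2.42 without 1 library. With a 50% overlap there was 1 WT-only region, 1 PLX-only region, 3 control-only regions and no section-only region (0), and with lists limited to the shortest there was 1 WT-only region. Order by fold gave 4 starts behind in KO. The cause was not tested. Without 1 library, KO-only regions ranged from 7 to 16 and WT-only from 1 to 6, PLX-only from 0 to 10 and control-only from 1 to 7, and section-only from 1 to 3. Starts not overlapping ranged from 3 to 9 ahead and 3 to 7 behind in KO, and from 2 to 10 ahead and 6 to 10 behind under PLX chow. Differences in −log2 rank at single starts moved by more than the spread between libraries in 8 cases, all under order by fold. Small ones changed sign without 1 library. Pcdhgc5, KO against WT (−0.20), reached 0.14 without WT 1 and 0.04 without KO 2, Pcdhac1 under PLX chow (−0.15) reached 0.15 without PLX chow 1, and Pcdhac2, dLGN against sections (0.07), reached −0.08 without KO 2.

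The labels do not say that replicate numbers pair libraries. Deviations from group means correlated at 0.125 between same-numbered KO and WT libraries and at −0.0457 between PLX and control chow libraries, over 12625 gene starts, so with 2 pairs the numbers are taken as names. The replicate block restricts which permutations are counted and leaves every difference as it was by construction. The differences were −2.5 in member starts between dLGN and sections, and 0, −2, −1, −0.5 and −3.25 in the other comparisons. Their equality with the main values is therefore not a sign of stability. Read depth is unknown, which limits every statement on weak peaks.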
